A study of Homo sapiens with 6 samples.

Results

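The transcripts described here are those of 40 genes of mitosis and the G2/M transition, chosen by gene name and measured by poly(A) RNA sequencing of T98G, a human glioblastoma cell line. The 3 libraries labelled shSLC1A5 stand for cells with a short hairpin RNA against SLC1A5, a sodium-dependent carrier of glutamine and other neutral amino acids, and the 3 labelled shControl for cells with a control hairpin, all grown in the same serum-containing medium. The labels give no hairpin sequence, vector, number of clones or time of knockdown. Nor do they state whether replicates were separate cultures. The p-values below therefore speak only of the variation among these 6 libraries, and that variation may be technical. Each of the 40 names matched 1 of the 35750 genes listed. All 40 passed the filter of a mean of at least 1 FPKM (fragments scaled to gene length and library size) and were among the 11841 genes tested. Their levels ran from 5.21 FPKM for SGO1 to 136 FPKM for CDC20 in single libraries.

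Cells enter mitosis when CDK1, bound to a B-type cyclin, is freed of inhibitory phosphates by CDC25 phosphatases, with Polo-like and Aurora kinases acting beside it. The spindle assembly checkpoint then holds back the anaphase-promoting complex (APC/C), a ubiquitin ligase, until kinetochores have bound spindle microtubules, and kinesins and midzone proteins carry chromosome movement and cytokinesis through. Transcripts of these genes accumulate in G2, when FOXM1 and the MYBL2-MuvB complex act on promoters that the DREAM complex keeps silent in resting cells, and they are widely used as a readout of tumour cell proliferation. In bulk RNA, fewer dividing cells and less of each transcript per cell cannot be told apart.

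Letters that match the elements through which these complexes act were searched near the start sites, and a few promoters are shown because they belong to genes that moved or that hold the elements in their usual arrangement. RefSeq promoters on GRCh38.p14 matched 33 of the 40 genes, and the first listed start was taken for each gene. TPX2, AURKA, BIRC5, UBE2C, BUB3, TTK and FOXM1 had no entry. The searched letters were TTTGAA or TTTAAA, the core of the cell cycle homology region bound by MuvB, and CCAAT, the box bound by the NF-Y factor, on both strands. Each line below gives the 130 bases before the start, read 5′ to 3′ in the direction of the gene, and capitals mark these letters or their reverse complement.
CCNB1: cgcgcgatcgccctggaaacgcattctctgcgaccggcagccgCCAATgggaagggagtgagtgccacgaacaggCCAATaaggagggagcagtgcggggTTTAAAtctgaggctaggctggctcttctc
CCNB2: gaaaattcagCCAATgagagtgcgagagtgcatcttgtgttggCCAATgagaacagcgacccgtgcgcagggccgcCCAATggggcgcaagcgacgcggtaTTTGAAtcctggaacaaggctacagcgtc
CENPF: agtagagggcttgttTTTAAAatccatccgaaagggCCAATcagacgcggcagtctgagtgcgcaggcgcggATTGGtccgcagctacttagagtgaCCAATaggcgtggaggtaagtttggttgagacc
KIF23: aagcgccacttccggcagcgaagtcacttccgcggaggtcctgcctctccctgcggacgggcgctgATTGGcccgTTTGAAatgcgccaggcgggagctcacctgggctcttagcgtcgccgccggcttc
HMMR: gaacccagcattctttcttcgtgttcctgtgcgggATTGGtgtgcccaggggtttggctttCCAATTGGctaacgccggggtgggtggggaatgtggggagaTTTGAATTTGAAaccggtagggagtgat
ANLN: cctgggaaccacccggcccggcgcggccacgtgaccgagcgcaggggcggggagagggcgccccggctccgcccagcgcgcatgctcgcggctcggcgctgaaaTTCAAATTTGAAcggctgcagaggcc
CDC25B: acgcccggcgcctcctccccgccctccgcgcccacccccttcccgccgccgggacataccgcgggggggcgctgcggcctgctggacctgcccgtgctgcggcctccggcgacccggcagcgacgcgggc
MAD2L1: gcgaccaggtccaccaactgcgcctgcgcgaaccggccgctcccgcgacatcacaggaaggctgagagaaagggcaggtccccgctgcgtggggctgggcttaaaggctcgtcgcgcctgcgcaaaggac
The stretches lie at chr5:69167020-69167149, plus strand for CCNB1, chr15:59105016-59105145, plus strand for CCNB2, chr1:214603065-214603194, plus strand for CENPF, chr15:69414219-69414348, plus strand for KIF23, chr5:163460502-163460631, plus strand for HMMR, chr7:36389732-36389861, plus strand for ANLN, chr20:3786821-3786950, plus strand for CDC25B and chr4:120066849-120066978, minus strand for MAD2L1. In CCNB1 and CCNB2 the CCAAT boxes stood upstream of a single TTTAAA or TTTGAA near the start. In CENPF a TTTAAA lay upstream of 3 CCAAT letters on either strand, and in KIF23 a CCAAT on the opposite strand lay just upstream of a TTTGAA. HMMR had 2 adjoining copies of TTTGAA and, further upstream, a CCAAT that overlaps its reverse complement and 1 more ATTGG before them, while ANLN had a TTTGAA beside its reverse complement and no CCAAT, and CDC25B and MAD2L1 neither element in this window.

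Over these 130 bases, TTTGAA or TTTAAA was present in 21 of 33 of the genes (63.6%), against 10.9% of the promoters of 27305 genes and 5.77% of those of 8664 tested genes. CCAAT was present in 22 of 33 (66.7%), against 22.3% of all promoters and 25.8% of those of tested genes. Both occurred together in 18 of 33 (54.5%), against 2.53% and 1.92%. Within the set, TTTGAA or TTTAAA was found in 0 of the 2 genes with a promoter that were higher in shSLC1A5, in 8 of the 11 that were lower and in 13 of the 20 that were not called. In a wider window, from 250 bases before the start to 50 after it, the counts were 1 of 2, 9 of 11 and 17 of 20. The lower genes printed above all held TTTGAA or TTTAAA. CDC25C, BUB1 and NDC80, which were also lower, held neither in these 130 bases and are not printed, so the printed promoters do not represent the lower genes. In NDC80 a match to TTTGAA, counted on both strands, began at -3 and crossed the end of the window. The CDC25C stretch, chr5:138338356-138338485, did not adjoin the gene as counted (chr5:138285265-138331877, minus strand), so it may not be the start of the measured transcripts. All matches are of letters, not measured sites, and their distribution over so few genes was not tested.

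Because the targeted transcript itself moved little, each direction below refers to the library labels, shSLC1A5 set against shControl. SLC1A5 stood at 87.9 ± 0.407 FPKM in shSLC1A5 and 95.8 ± 1.15 FPKM in shControl (SD, n = 3 each), which is 9.02% lower (log2 fold change -0.14, SE 0.018, adjusted p = 1.93e-04 by edgeR). After the GC and length correction described below, its log2 fold change was -0.35. Total counts per library ran from 66998312 to 70802167 in shSLC1A5 and from 59327548 to 63420773 in shControl. Of the glioma markers, VIM, CD44 and EGFR were abundant and all 3 fell without overlap, with log2 fold changes of -0.22, -0.12 and -0.16 (-0.16, -0.084 and -0.14 after that correction), while GFAP, NES, SOX2, OLIG2 and S100B were each below 1 FPKM, with SOX2 and S100B at 0 counts in all shSLC1A5 libraries. Summed counts of blood cell markers were higher in shSLC1A5. For B and plasma cells they were 627 to 1311 against 14 to 26 in shControl, mainly IGHM and IGKC, IGHM being at 0 in all shControl libraries. Of these 10 markers, 9, 7 and 6 had counts in shSLC1A5 replicates 1, 2 and 3. Neutrophil markers summed to 4336, 55 and 34 counts in shSLC1A5 and 12 to 25 in shControl, led by S100A8 and S100A9 and with MPO at 0 throughout. The 6 matched of 10 red cell markers, mainly ALAS2 and SLC4A1, summed to 1087, 20 and 7 in shSLC1A5 and 0 to 6 in shControl. Of the globin genes, HBA1 and HBA2 were at 0 counts in shSLC1A5 replicate 1 and at 0 to 11 in the other libraries, and HBB and HBD were not matched. The 5 matched of 8 T and NK cell markers, mainly TRAC and NKG7, summed to 25 to 45 counts in shSLC1A5. In shControl they summed to 3 to 12, with CD3E at 0 in every library. Monocyte markers summed to 3407 to 4790 in shSLC1A5 and 2665 to 3072 in shControl, mostly from CD68 (3292 to 3748 and 2548 to 2972). LYZ came next, at 508, 0 and 13 in shSLC1A5 and 26, 24 and 11 in shControl. CSF1R was at 48 to 76 counts in shSLC1A5 and 57 to 73 in shControl, and PTPRC at 369, 20 and 19 against 0, 0 and 10. The part of these cells in the results below was not tested, beside summed counts of the 40 mitotic genes of 520107 to 545271 in shSLC1A5 and 477051 to 511707 in shControl. Without shSLC1A5 replicate 1, which held most of the neutrophil and red cell marker counts, 15 of the 40 genes passed the test, 4 higher and 11 lower. The median log2 fold change of the 40 genes was then -0.054.

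More of the mitotic genes were lower than higher in shSLC1A5, and all by small amounts. Of the 40 genes, 15 fell and 4 rose at an adjusted p under 0.05 in edgeR's quasi-likelihood test with Benjamini-Hochberg adjustment over all tested genes, and 21 were not called. The share that fell, 37.5%, stands beside 19.0% of all tested genes, the share that rose, 10.0%, beside 20.2%, and the share called either way, 47.5%, beside 39.2%. The median log2 fold change of the 40 genes was -0.066 (interquartile range -0.14 to -0.0015), against -0.0057 over all tested genes, and 30 of the 40 values were negative. After a correction for GC content and transcript length, described below, the shares were 30.0% lower beside 14.8% and 12.5% higher beside 11.1%, and the median of the 40 genes was -0.026. Together the 40 genes took 0.770%, 0.780% and 0.776% of all counts in the shSLC1A5 libraries and 0.807%, 0.807% and 0.804% in the shControl libraries, so that the 2 groups did not overlap in this uncorrected sum. Summed by function, the shares of the entry regulators, of the checkpoint genes and of TOP2A, MKI67 and FOXM1 overlapped. Those of the kinetochore genes, the kinesins and the spindle and cytokinesis genes did not.

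The individual differences were small and narrowly measured. They ran from -0.30 for TTK to 0.18 for CDC25B on the log2 scale, with a standard deviation of 0.11 over the 40 genes, against 0.41 over all tested genes. Only TTK exceeded an absolute log2 fold change of 0.3 (2.5% of the 40 genes), against 17.5% of all tested genes. The median standard error was 0.031 for the 40 genes and 0.056 over all tested genes, with 1242 to 47991 counts per library behind each mitotic gene. The smallest difference called among them was that of MKI67, at -0.079. In FPKM the groups did not overlap for 17 of the 40 genes, 12 lower and 5 higher in shSLC1A5 (30.0% and 12.5%), against 22.3% lower and 27.3% higher of all tested genes, or 49.6% in either direction. NDC80, KIF18A and MKI67 were called although their groups overlapped, and PLK1 was not called although its groups did not.

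**Figure D1:**
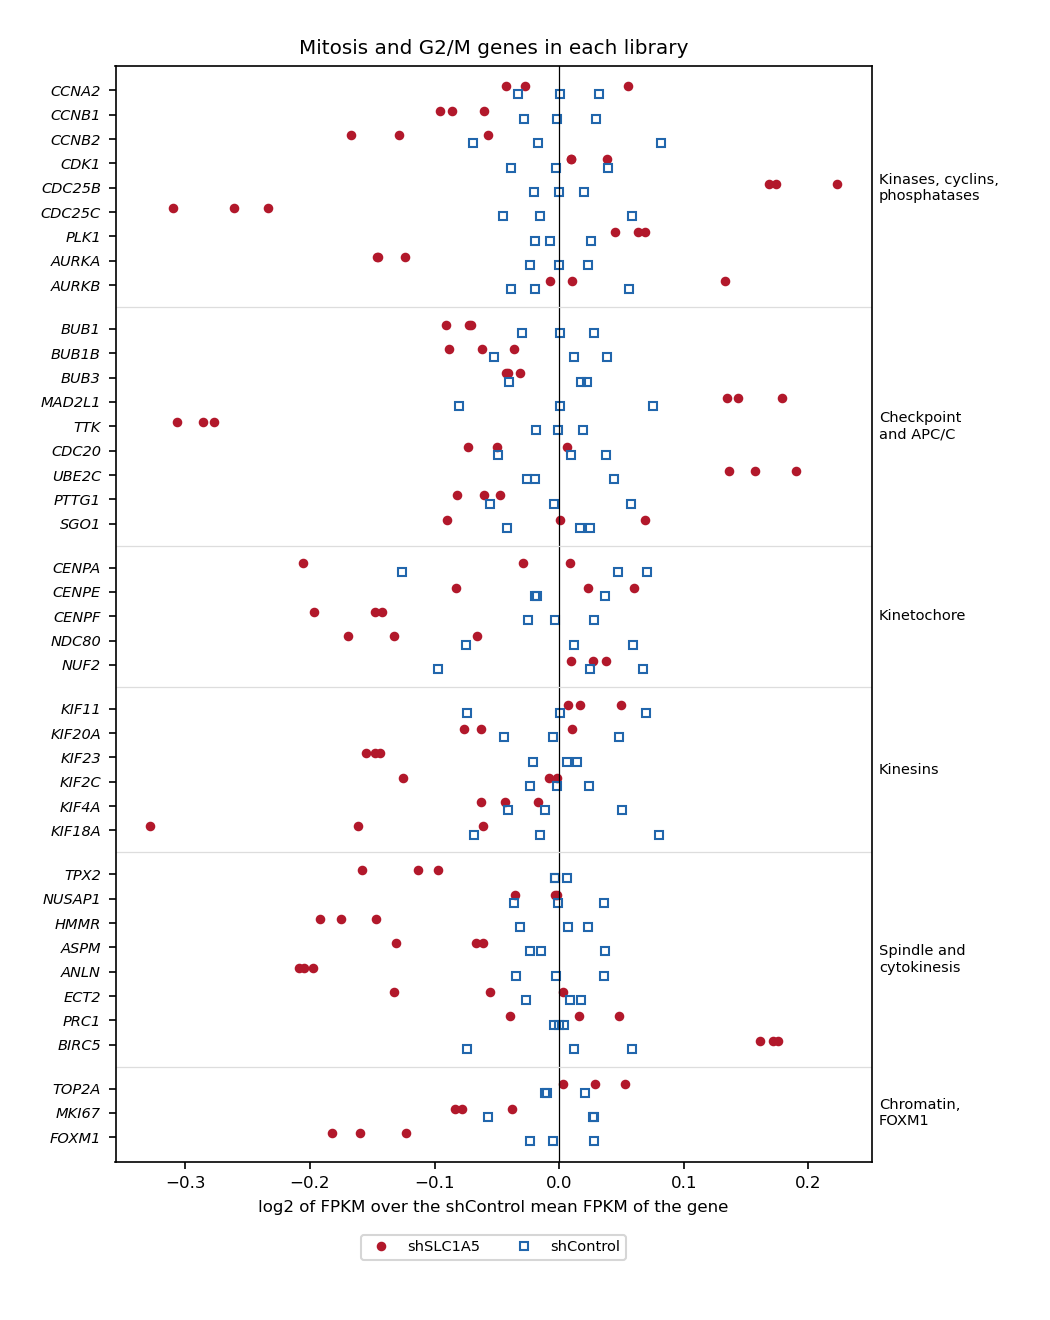
Level of each of the 40 mitosis and G2/M genes in every library, as log2 of its FPKM over the gene's mean in shControl, with shSLC1A5 libraries as filled circles and shControl libraries as open squares. The 2 groups are apart with shSLC1A5 lower for 12 genes and with shSLC1A5 higher for 5, and overlap for 23.

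The regulators of mitotic entry (cyclins, CDK1, CDC25 phosphatases, Polo-like and Aurora kinases) moved in both directions, with 1 of 9 higher, 3 lower and a median log2 fold change of -0.017. That median was -0.035 after the GC and length correction, 0.0032 with quantile normalization, and from -0.045 without shSLC1A5 replicate 3 to -0.0031 without shControl replicate 3. CDC25C (ENSG00000158402, chr5:138285265-138331877, minus strand), the phosphatase that activates CDK1 at mitotic onset, was at 6.13, 6.25 and 5.93 FPKM in shSLC1A5 and 7.27, 7.12 and 7.66 FPKM in shControl. All shSLC1A5 values lay below all shControl values, and CDC25C fell by 17.7% (log2 fold change -0.28, SE 0.057, adjusted p = 0.00280). CDC25C shares 293 exon bases with FAM53C on the opposite strand, and FAM53C, with more counts than CDC25C, stood at a log2 fold change of 0.083 (adjusted p = 0.0754). CDC25B (ENSG00000101224, chr20:3786772-3806121, plus strand), its relative that acts earlier at the centrosome, had the opposite sign, at 57.9, 60.1 and 58.1 FPKM in shSLC1A5 and 51.5, 50.8 and 52.2 FPKM in shControl. It rose by 13% without overlap (log2 fold change 0.18, SE 0.022, adjusted p = 0.000109), the largest rise of the set. That rise was absent with a correction for the GC content and length of the transcript, described below, where the log2 fold change was -0.00088 (adjusted p = 0.981).

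AURKA (ENSG00000087586, chr20:56369389-56392296, minus strand), the Aurora kinase of the centrosome and spindle poles, was at 57.8, 58.7 and 57.8 FPKM in shSLC1A5 and 65.0, 62.9 and 63.9 FPKM in shControl. The groups did not overlap, and AURKA fell by 9.97% (log2 fold change -0.15, SE 0.023, adjusted p = 0.000489), with a corrected value of -0.096 (adjusted p = 0.0111). CCNB1 (ENSG00000134057, chr5:69167135-69178245, plus strand), the main mitotic cyclin, was at 101, 103 and 101 FPKM in shSLC1A5 and 108, 106 and 109.9 FPKM in shControl. All 3 shSLC1A5 values were again the lower ones, with a fall of 6.26% (log2 fold change -0.093, SE 0.022, adjusted p = 0.00614) that was not called after the GC and length correction (-0.021, adjusted p = 0.496). CDK1 (ENSG00000170312, chr10:60778331-60794852, plus strand), the kinase that CCNB1 activates, was at 30.2, 29.6 and 29.6 FPKM in shSLC1A5 and 28.6, 29.4 and 30.2 FPKM in shControl. Its groups overlapped, and its log2 fold change of 0.0067 had a 95% confidence interval of -0.058 to 0.072 (adjusted p = 0.878), while the corrected value was 0.10 (adjusted p = 0.0143), a call of higher. PLK1 (ENSG00000166851, chr16:23677656-23690366, plus strand), the Polo-like kinase of mitotic entry and exit, was at 29.3, 29.8 and 29.7 FPKM in shSLC1A5 and 28.3, 28.1 and 28.9 FPKM in shControl. All shSLC1A5 values lay above all shControl values, yet the log2 fold change of 0.047 missed the threshold (95% confidence interval -0.0070 to 0.10, adjusted p = 0.155). With the correction it was -0.089 and called lower (adjusted p = 0.0245), whereas with a filter at a mean of 5 FPKM PLK1 was called higher. CCNB2, a second B-type cyclin, lay just outside the threshold, with a log2 fold change of -0.13 (SE 0.048, adjusted p = 0.0520). CCNA2, the cyclin of S phase and G2, and AURKB, the kinase of the chromosomal passenger complex, had log2 fold changes of -0.017 and 0.033 and overlapping groups.

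Among 9 genes of the spindle assembly checkpoint and its target, the APC/C, 2 rose and 2 fell, with a median log2 fold change of -0.051 that was -0.0055 after the GC and length correction. TTK (ENSG00000112742, chr6:80003887-80042527, plus strand), the kinase that starts checkpoint signalling at unattached kinetochores, was at 10.4, 10.5 and 10.2 FPKM in shSLC1A5 and 12.7, 12.8 and 12.5 FPKM in shControl. The 2 groups lay wide apart relative to the spread within each, and TTK fell by 18.9% (log2 fold change -0.30, SE 0.036, adjusted p = 8.19e-05), the largest fall of the set. After the correction its value was -0.22 (adjusted p = 0.000856), a smaller fall than those of FOXM1 (-0.26) and CDC25C (-0.23). BUB1 (ENSG00000169679, chr2:110637528-110678063, minus strand), a checkpoint kinase that TTK recruits, was at 19.3, 19.0 and 19.3 FPKM in shSLC1A5 and 19.9, 20.7 and 20.3 FPKM in shControl. Its groups were apart by a narrow margin and its fall of 6.08% (log2 fold change -0.090, SE 0.027, adjusted p = 0.0203) lost its call in 3 of the 6 fits that left out 1 library and after the GC and length correction (-0.016, adjusted p = 0.685).

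MAD2L1 (ENSG00000164109, chr4:120055623-120066858, minus strand), the checkpoint protein that sequesters CDC20, moved the other way, at 19.3, 19.8 and 19.2 FPKM in shSLC1A5 and 16.6, 17.5 and 18.4 FPKM in shControl. It rose by 10.2% without overlap (log2 fold change 0.14, SE 0.038, adjusted p = 0.0135), and by more after the correction (0.21, adjusted p = 0.00247), but the call was lost without shSLC1A5 replicate 2 or without shControl replicate 1, with an adjusted p of up to 0.0650. UBE2C (ENSG00000175063, chr20:45812576-45816957, plus strand), the ubiquitin-conjugating enzyme that works with the APC/C, was at 92.8, 89.4 and 90.7 FPKM in shSLC1A5 and 80.3, 79.9 and 83.9 FPKM in shControl. All shSLC1A5 values lay above all shControl values, and UBE2C rose by 10.9% (log2 fold change 0.15, SE 0.032, adjusted p = 0.00381). The checkpoint genes that fell and those that rose thus stood side by side in the same libraries. CDC20, the APC/C activator and the most abundant of the 40 transcripts at 129 ± 3.69 FPKM in shSLC1A5 and 133 ± 4.05 FPKM in shControl (SD, n = 3 each), was not called (log2 fold change -0.051, adjusted p = 0.159), and was lower after the correction (-0.17, adjusted p = 0.000307). BUB1B and BUB3, partners in the mitotic checkpoint complex, PTTG1, the securin that blocks separase, and SGO1, which protects centromeric cohesin, had log2 fold changes of -0.075, -0.051, -0.076 and -0.019, with overlapping groups and no call.

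Of 5 kinetochore genes, 2 were lower and 0 higher, with a median log2 fold change of -0.085. After the correction 1 was lower and the median was -0.040, and leaving out 1 library gave medians from -0.14 (without shControl replicate 3) to -0.039 (without shSLC1A5 replicate 2). CENPF (ENSG00000117724, chr1:214603195-214664571, plus strand), a large protein of the outer kinetochore, was at 24.7, 25.7 and 25.6 FPKM in shSLC1A5 and 27.8, 28.9 and 28.2 FPKM in shControl. The groups did not overlap, and CENPF fell by 11.4% (log2 fold change -0.17, SE 0.020, adjusted p = 7.48e-05), with a corrected value of -0.11 (adjusted p = 0.00150). NDC80 (ENSG00000080986, chr18:2571557-2616635, plus strand), the microtubule-binding subunit of the NDC80 complex, was at 12.3, 12 and 12.9 FPKM in shSLC1A5 and 14.1, 13.6 and 12.8 FPKM in shControl. The lowest shControl value lay below the highest shSLC1A5 value, and the log2 fold change of -0.13 (SE 0.048, adjusted p = 0.0453) was called by a thin margin that was lost in 4 of the 6 fits without 1 library and after the correction (-0.050, adjusted p = 0.495). NUF2, the partner of NDC80 in the same complex, was at 0.011 on the log2 scale with a 95% confidence interval of -0.095 to 0.12. CENPA, the histone that marks centromeres, and CENPE, a kinetochore motor, had log2 fold changes of -0.085 and -0.012 and overlapping groups, CENPA with the widest interval of the set (-0.26 to 0.091). CENPA shares 138 exon bases on the same strand with SLC35F6, which held a mean of 4637 counts against 1457 for CENPA, so its counts are less certain.

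Among 6 mitotic kinesins, 2 were lower and 0 higher, with a median log2 fold change of -0.056, and after the correction 1 was lower (median -0.030). KIF23 (ENSG00000137807, chr15:69414246-69448427, plus strand), the motor of the centralspindlin complex that organizes the midzone for cytokinesis, was at 25.3, 25.4 and 25.2 FPKM in shSLC1A5 and 27.6, 28.2 and 28.3 FPKM in shControl. The 3 shSLC1A5 values were nearly identical and all below shControl, and KIF23 fell by 10.6% (log2 fold change -0.16, SE 0.021, adjusted p = 0.000170), with a corrected value of -0.089 (adjusted p = 0.00946). KIF18A (ENSG00000121621, chr11:28020619-28108156, minus strand), which dampens chromosome oscillation at the metaphase plate, was at 7.07, 7.93 and 8.50 FPKM in shSLC1A5 and 9.38, 8.46 and 8.78 FPKM in shControl. Its groups overlapped by a small margin, and its log2 fold change of -0.19 (SE 0.065, adjusted p = 0.0371) lost its call in 4 of the 6 fits without 1 library and after the correction (-0.11, adjusted p = 0.263). KIF18A shares 61 exon bases on the opposite strand with METTL15, whose log2 fold change was -0.26 (adjusted p = 0.0106), and whether reads were split between them was not tested. KIF11, which pushes spindle poles apart, had a log2 fold change of 0.012, and KIF20A, KIF2C and KIF4A, which act in cytokinesis, microtubule depolymerization and midzone length, had values of -0.055, -0.057 and -0.054. None of these 4 was called, and their groups overlapped.

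Of 8 spindle and cytokinesis genes, 4 were lower and 1 higher, with a median log2 fold change of -0.086, and after the correction 3 were lower and 1 higher (median -0.013). ANLN (ENSG00000011426, chr7:36389821-36453791, plus strand), the anillin scaffold of the contractile ring, was at 89.2, 89.9 and 89.5 FPKM in shSLC1A5 and 101, 106 and 103 FPKM in shControl. All shSLC1A5 values lay well below all shControl values, and ANLN fell by 13.9% (log2 fold change -0.22, SE 0.019, adjusted p = 8.53e-06), the smallest p of the set. Its corrected value was -0.14 (adjusted p = 0.000119), and after the correction FOXM1 had the smallest p. HMMR (ENSG00000072571, chr5:163460203-163491941, plus strand), a hyaluronan receptor that also binds spindle microtubules, was at 27.8, 28.7 and 28.1 FPKM in shSLC1A5 and 31.0, 32.2 and 31.9 FPKM in shControl. It fell by 12% without overlap (log2 fold change -0.18, SE 0.027, adjusted p = 0.000367), with a corrected value of -0.094 (adjusted p = 0.0246). TPX2 (ENSG00000088325, chr20:31739271-31801805, plus strand), which activates AURKA on the spindle, was at 109.6, 113 and 114 FPKM in shSLC1A5 and 123, 122 and 122 FPKM in shControl. Its groups were apart too, and it fell by 8.98% (log2 fold change -0.14, SE 0.019, adjusted p = 0.000242), as did the kinase it activates. Its corrected value was -0.089 (adjusted p = 0.00435).

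ASPM (ENSG00000066279, chr1:197084127-197146694, minus strand), a protein of the spindle poles, was at 18.0, 18.8 and 18.9 FPKM in shSLC1A5 and 19.5, 20.2 and 19.4 FPKM in shControl. All 3 shSLC1A5 values were the lower ones, with a log2 fold change of -0.099 (SE 0.025, adjusted p = 0.00877) that was not called after the GC and length correction (-0.032, adjusted p = 0.320) or without shSLC1A5 replicate 1 (adjusted p = 0.0594). BIRC5 (ENSG00000089685, chr17:78214186-78225636, plus strand), which encodes survivin of the chromosomal passenger complex, was the exception in direction, at 43.2, 42.7 and 43.0 FPKM in shSLC1A5 and 39.8, 36.3 and 38.5 FPKM in shControl. It rose by 11.5% without overlap (log2 fold change 0.16, SE 0.034, adjusted p = 0.00408), whereas AURKB of the same complex was not called. CDCA8, also of that complex but outside the 40 genes, fell without overlap (log2 fold change -0.15, adjusted p = 0.0134, corrected -0.15, adjusted p = 0.0186). ECT2, the exchange factor that activates RhoA at the division site, PRC1, which bundles midzone microtubules, and NUSAP1, a spindle-associated protein, had log2 fold changes of -0.074, -0.0042 and -0.026 and overlapping groups. PRC1 and NUSAP1 share 3181 and 1787 exon bases with another annotated gene on the same strand, so their counts are less certain.

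Of the 3 remaining genes, FOXM1 (ENSG00000111206, chr12:2857680-2877174, minus strand), the forkhead factor that drives transcription of many genes of the set, was at 50.8, 52.9 and 51.6 FPKM in shSLC1A5 and 56.7, 57.4 and 58.7 FPKM in shControl. The groups did not overlap, and FOXM1 fell by 11% (log2 fold change -0.17, SE 0.021, adjusted p = 0.000119). Its fall was larger after the GC and length correction (-0.26, adjusted p = 5.36e-06). FOXM1 shares 781 exon bases on the opposite strand with ITFG2, whose counts were 5.72% of those of FOXM1. MKI67 (ENSG00000148773, chr10:128096659-128126423, minus strand), the Ki-67 antigen used as a proliferation marker, was at 45.5, 46.8 and 45.3 FPKM in shSLC1A5 and 48.9, 49.0 and 46.2 FPKM in shControl. The third shControl library lay below the second shSLC1A5 library, and the log2 fold change of -0.079 (SE 0.025, adjusted p = 0.0284) lost its call in 4 of the 6 fits without 1 library. TOP2A (ENSG00000131747, chr17:40388525-40417896, minus strand), the topoisomerase that untangles sister chromatids, was at 94.1, 97.4 and 95.7 FPKM in shSLC1A5 and 93.2, 95.2 and 93.1 FPKM in shControl. Its groups overlapped at a log2 fold change of 0.016 (95% confidence interval -0.023 to 0.054, adjusted p = 0.514), and with the correction it was called higher (0.083, adjusted p = 0.00216).

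**Figure D2:**
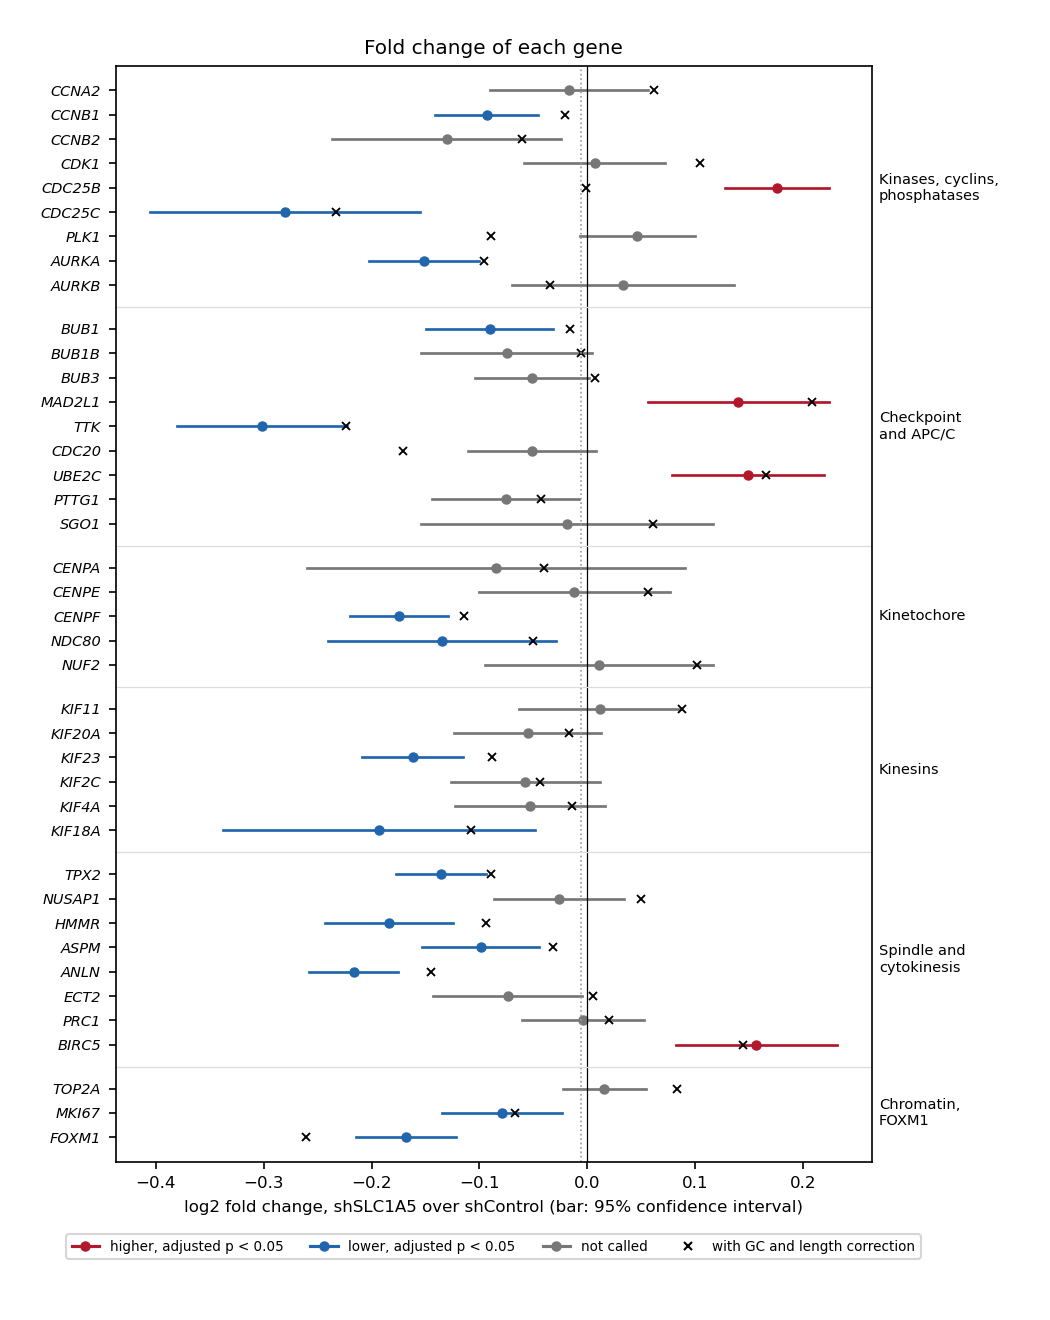
Log2 fold change of each gene in shSLC1A5 over shControl, with the 95% confidence interval as a bar, and the value after the GC and length correction as a cross; the dotted line is the median of all tested genes. TTK at -0.30 and CDC25C at -0.28 are the lowest values and CDC25B at 0.18 the highest, and the cross of CDC25B sits at the zero line.

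The 21 genes without a call had log2 fold changes from -0.13 to 0.047. Their 95% confidence intervals reached from -0.26 at the lowest to 0.14 at the highest, so changes beyond these bounds were outside the interval of every one of them. Their adjusted p ran from 0.0520 to 0.913. The functional classes were not tested against each other. From 0 to 2 genes rose and 2 to 4 fell in each, and the class medians lay between -0.086 for the spindle and cytokinesis genes and -0.017 for the regulators of entry. With the GC and length correction they lay between -0.067 for FOXM1, MKI67 and TOP2A and -0.0055 for the checkpoint genes, in another order.

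Fold changes across the transcriptome followed the GC content of the transcript, and this touched the mitotic genes. The Spearman correlation between log2 fold change and the GC content of the longest GENCODE 29 transcript was 0.49 across 11800 tested genes and 0.21 across the 40 mitotic genes, as descriptions, since genes are not independent replicates. The mitotic transcripts had a median GC content of 42.9%, against 48.0% for all tested genes. Tested genes in the bins centred on 41.25% and 43.75% GC had median log2 fold changes of -0.076 and -0.074, close to the -0.066 of the 40 genes. When GC content and length were fitted in each library and removed, the median of the 40 genes was -0.026 and that of all tested genes -0.0094. The Spearman correlation with GC content was then -0.013 across the 11800 genes but -0.22 across the 40 genes. Within the set, the corrected values thus ran against GC content, and they are not free of it. Of the 40 genes, 12 were then lower (30.0%) and 5 higher (12.5%), against 14.8% lower and 11.1% higher of all tested genes, or 42.5% called in either direction against 25.9%. How far GC content accounts for the difference of any single gene was not tested.

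**Figure D3:**
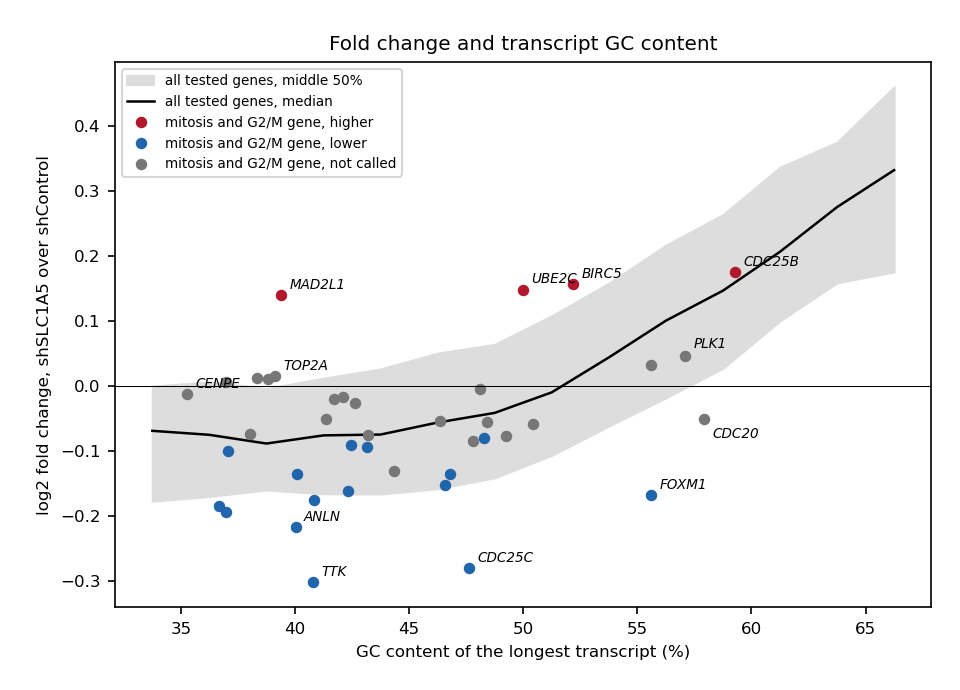
Log2 fold change in shSLC1A5 over shControl against the GC content of the longest transcript in percent, with the median (line) and middle 50% (band) of all tested genes in bins of GC content and the 40 mitosis and G2/M genes as points coloured by call. CDC25B at 59.3% GC lies near the line of all genes, TTK, CDC25C, FOXM1 and CDC20 are among the genes below the band, and MAD2L1, UBE2C and BIRC5 lie above it.

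The same call and direction were found with and without the correction for 13 genes. The 10 lower ones were CDC25C, AURKA, TTK, CENPF, KIF23, TPX2, HMMR, ANLN, MKI67 and FOXM1, and the 3 higher ones MAD2L1, UBE2C and BIRC5. CCNB1, BUB1, NDC80, KIF18A and ASPM were no longer called lower, and CDC25B no longer higher. PLK1 and CDC20, at 57.1% and 57.9% GC, were newly lower, and CDK1 and TOP2A, at 37.0% and 39.1% GC, newly higher. When the fits that leave out 1 library were added as a condition, 11 genes kept their call in every one of them, 9 lower (CDC25C, AURKA, TTK, CENPF, KIF23, TPX2, HMMR, ANLN and FOXM1) and 2 higher (UBE2C and BIRC5).

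Other mitotic genes, taken from lists of pathway members, can be read against the same 20.2% higher and 19.0% lower among all tested genes. Of 33 further kinetochore genes, 2 were higher and 7 lower, with a median log2 fold change of -0.056, and after the correction 1 was higher and 3 lower (median 0.0028), beside 11.1% higher and 14.8% lower of all tested genes. Without shSLC1A5 replicate 2, 3 were lower, and without shControl replicate 2, 4. CENPI, a subunit of the constitutive centromere complex, was at 8.18 ± 0.245 FPKM in shSLC1A5 and 10.1 ± 0.301 FPKM in shControl (SD, n = 3 each; log2 fold change -0.31, SE 0.042, adjusted p = 0.000210), while CENPT and CENPX of the same complex had log2 fold changes of 0.28 and 0.26 that were not called after the correction (0.12 and -0.021). Of 17 further APC/C genes, 4 were higher and 3 lower (median -0.054), and after the correction 2 were higher and 1 lower (median -3.6e-05), while without shSLC1A5 replicate 2 the median was -0.026. Log2 fold changes were 0.48 for ANAPC11, the RING subunit, 0.36 for FZR1, the activator of late mitosis and G1, and -0.32 for CDC26, a small scaffold subunit, with corrected values of 0.37, 0.049 and -0.24 and no call for FZR1. Of 19 condensin and cohesin genes, 2 were higher and 2 lower (median -0.023), and after the correction 1 was higher and 2 lower, with a median of the other sign (0.034). Without shSLC1A5 replicate 1, shSLC1A5 replicate 3 or shControl replicate 2, 0 were lower, and without shControl replicate 1, 1 was. The cohesin subunit STAG1 had a log2 fold change of -0.14 (corrected -0.073, not called), and the condensin II subunits NCAPH2 and NCAPD3 both had 0.13, of which NCAPH2 was called lower after the correction (-0.096) and NCAPD3 higher (0.13). Of 7 other mitotic kinesins, 2 were higher and 1 lower (median 0.11, with 0.067 without shSLC1A5 replicate 1 and 0.072 without shSLC1A5 replicate 3), and after the correction 1 was higher and 1 lower (median 0.013). KIF14, a cytokinesis kinesin, had a log2 fold change of -0.19 (corrected -0.12, called), while KIF18B, which limits microtubule length, and KIFC1, a minus-end motor, had 0.25 and 0.16, both without a call after the correction (0.085 and 0.032). Of 24 centrosome and spindle genes, 5 were higher and 5 lower (median -0.036), and after the correction 1 was higher and 5 lower (median -0.012). Without shSLC1A5 replicate 2 or shControl replicate 3, 3 were higher. TACC3, a microtubule-binding partner of AURKA, had a log2 fold change of 0.28 and CEP55, the midbody protein of abscission, of -0.24, both called after the correction (0.15 and -0.16), and INCENP, the scaffold of the chromosomal passenger complex, had 0.18 and no call after it (-0.0059).

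The regulators of G2/M entry and the DNA damage checkpoint also held more lower than higher genes. Of 20 tested members, 3 were higher and 7 lower (median log2 fold change -0.083), beside 20.2% higher and 19.0% lower of all tested genes. After the correction 0 were higher and 5 lower, beside 11.1% and 14.8%, and with the correction and a replicate block 1 was higher. PLK2, a stress-induced Polo-like kinase of G1 and S phase, was at 54.4 ± 0.637 FPKM in shSLC1A5 and 81.6 ± 1.19 FPKM in shControl (SD, n = 3 each), with a log2 fold change of -0.60 (SE 0.020, adjusted p = 7.68e-09). GADD45A, a damage-induced inhibitor of the CDK1 complex, was at 32.0 ± 2.06 FPKM in shSLC1A5 and 44.8 ± 3.34 FPKM in shControl, with a log2 fold change of -0.50 (SE 0.057, adjusted p = 6.58e-05). Both were still lower after the correction (-0.55 for PLK2 and -0.49 for GADD45A), whereas PKMYT1, a kinase that inhibits CDK1, had a log2 fold change of 0.39 and lost its call (0.058). A further list of 15 genes held members of DREAM and the MYBL2-MuvB complex and the related genes RB1, E2F7 and E2F8. Of these 15, 2 were higher and 1, E2F7, lower (median 0.035), and after the correction 1 was higher and 1 lower (median 0.052). Leaving out 1 library gave medians from 0.014 (without shSLC1A5 replicate 2) to 0.060 (without shSLC1A5 replicate 1). With shSLC1A5 replicate 1 or 2 or shControl replicate 1 or 3 left out, 1 gene was higher. MYBL2, which joins MuvB in S phase, and E2F4, the E2F subunit of DREAM, had log2 fold changes of 0.21 and 0.12, neither called after the correction (0.019 and -0.041). The repressor E2F7 had -0.37 and kept its call (-0.32).

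Genes of DNA replication and the G1/S transition, the other main class of cell cycle transcripts, leaned the opposite way from the mitotic genes. Of 45 such genes, 17 were higher and 5 lower (median log2 fold change 0.042), beside 20.2% higher and 19.0% lower of all tested genes. After the correction 17 were higher and 2 lower (median 0.058), beside 11.1% and 14.8%. With the correction and a replicate block, 13 were higher and 2 lower (median 0.059). Without shSLC1A5 replicate 3, with no correction, 3 were lower. The difference between the 2 classes was not tested. E2F2, a transcription factor of S-phase genes, MCM2, a subunit of the replicative helicase, and CDT1, which loads that helicase, had the largest log2 fold changes, 0.47, 0.36 and 0.35, and CDT1 was not called after the correction (0.041). In the curves of log2 fold changes the medians of the 2 classes lay on opposite sides of that of all tested genes, and the bars of called shares give each list beside all tested genes.

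**Figure D4:**
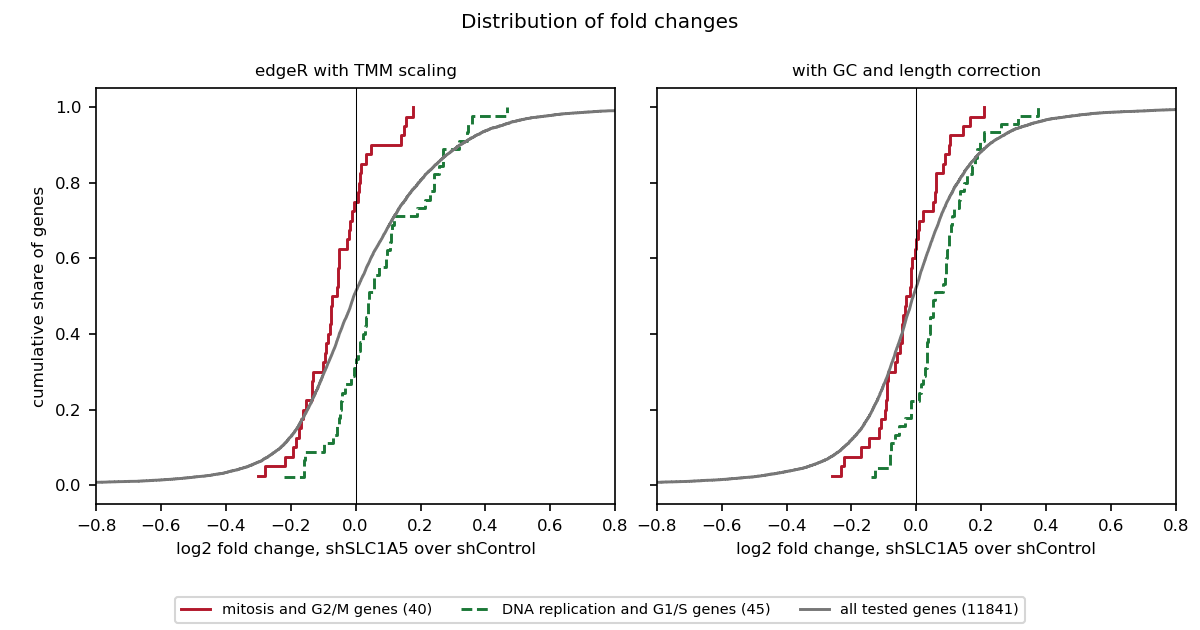
Cumulative share of genes at or below each log2 fold change of shSLC1A5 over shControl, without (left) and with (right) the GC and length correction, for the 40 mitosis and G2/M genes, 45 DNA replication and G1/S genes and 11841 tested genes. The mitotic curve crosses its middle at -0.066 on the left and -0.026 on the right, and the replication curve at 0.042 and 0.058.

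**Figure D5:**
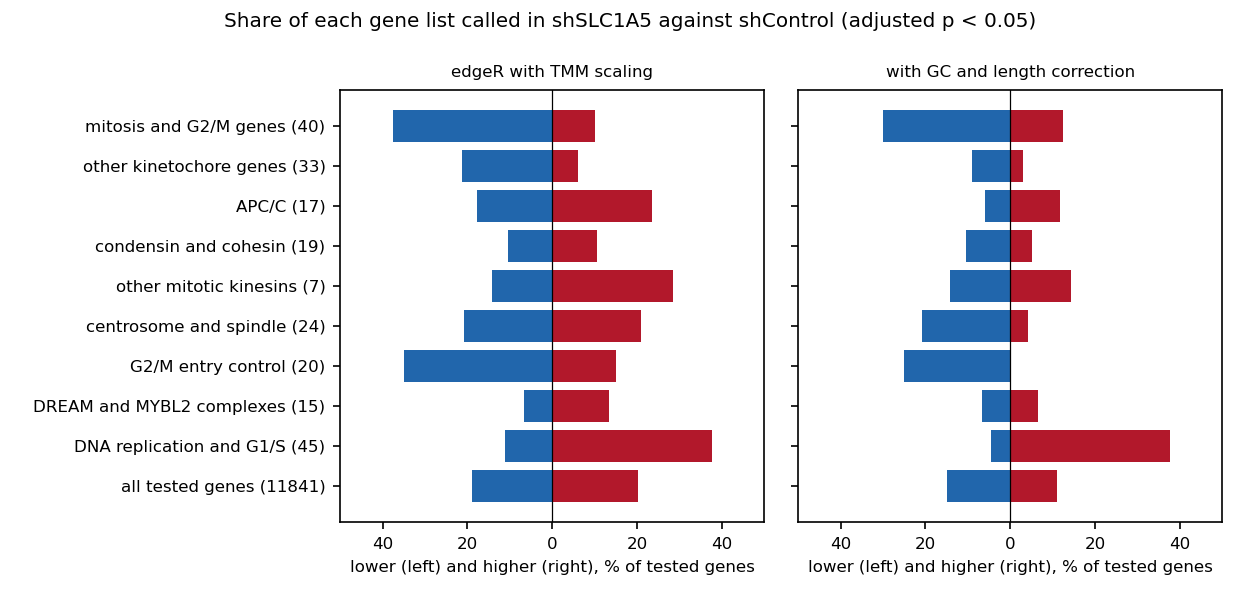
Percent of tested genes in each list that were lower (left of zero) or higher (right of zero) in shSLC1A5 than in shControl at an adjusted p under 0.05, without (left panel) and with (right panel) the GC and length correction, with the number of tested genes in brackets. Blue bars are lower and red bars higher genes. The 40 mitosis and G2/M genes show 37.5% lower and 10.0% higher on the left, and 30.0% lower and 12.5% higher on the right.

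Some counts carry a limit from the gene models. Exons of 18 of the 40 genes overlap those of another gene in GENCODE 29, 15 of them with a gene on the opposite strand, and the strand setting of the counting is not given in the sources used here. Pseudogenes, near-identical copies and antisense genes of the members held at most 257 counts in any library, for CDC20P1, against the 1242 counts or more of each mitotic gene.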

How the data were processed

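Poly(A) RNA of 6 T98G libraries was read in pairs on an Illumina NovaSeq, per the labels' protocols. The tools named in the submitters' processing notes are fastp, HISAT2 and StringTie. The genome build, annotation and strand setting were not given in the sources used here. The authors deposited counts per gene, taken as raw counts, and FPKM for the same libraries, per the file headers, under columns named NC, matched to shControl, and sh, matched to shSLC1A5. GENCODE 29 holds 34674 of the 35750 gene IDs, at overlapping GRCh38 positions for 99.9% of them, and the table's own coordinates are printed on that build.

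Counts of genes averaging 1 FPKM or more were tested with edgeR 4.0.16 in R 4.3.3 (TMM scaling, group as the only term, quasi-likelihood F test, Benjamini-Hochberg adjustment over 11841 genes, threshold 0.05). The standard error is the absolute log2 fold change over the square root of F. Replicate pairs differed by 9.82 to 16.7 times counting noise (chi-square per gene), so none was a duplicate. The GC and length correction was a loess fit (span 0.3) of each library's deviations on both properties of the longest transcript, entered as offsets. The 40 genes, the pathway and marker lists and the tests were chosen with earlier results of these data known. Values per library are given for every called gene and for CCNB1, CDK1, PLK1, AURKA, MKI67, TOP2A and FOXM1; from each other list the 3 called genes of the largest change are named, from marker lists the 2 genes of the highest counts. FAM53C, METTL15, ITFG2, SLC35F6, CDCA8, HBA1, HBA2, CSF1R and PTPRC were named after their values were seen. Alternatives were DESeq2 1.42.0, quantile, median-of-ratios and upper-quartile scaling, limma 3.58.1 on log2 FPKM with a pseudocount of 1 or 0.1, other filters, a replicate block, and leaving out each library. The edgeR test was run on simulated counts that held no GC or length trend, so that run did not test the correction.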

Additional observations from a re-analysis of the deposited data

How the results depend on the processing

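Under the 17 alternatives, from 14 to 20 of the 40 mitotic genes were called, against 19 as reported, with 10 to 16 lower and 3 to 5 higher, and the median log2 fold change was negative in each. It was -0.0507 with quantile normalization, -0.0513 with limma on log2(FPKM + 1), -0.0484 with a filter at a mean of 5 FPKM, -0.0262 with the GC and length correction and -0.0263 with that correction and the replicate block, against -0.0656 as reported, and -0.0713 to -0.0538 without 1 library. Over all tested genes, 4641 calls became 3071 with the correction and 2928 with the correction and the replicate block, and 3863 to 4081 without 1 library, where fewer samples remain. With the correction, CDC25B was at -0.000879 and PLK1 at -0.0894, and with the block added at -0.000771 and -0.0892, against positive values as reported. PLK1 was called lower in both fits, while CDC25B lost its call of higher and gained none (adjusted p = 0.981 and 0.985 by edgeR). With the filter at a mean of 5 FPKM and no correction, PLK1 was instead called higher, so the direction of its call depended on the processing. Changes of sign among genes called in neither fit are not listed. The calls of NDC80, KIF18A, MKI67, ASPM, BUB1 and MAD2L1 were each lost in at least 1 fit without a library, and 13 calls in none. NDC80, KIF18A, ASPM, MKI67 and MAD2L1 were also lost with no filter on FPKM.

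Replicate numbers did not pair the samples: deviations of same-numbered libraries correlated at -0.15, 0.036 and -0.034. A replicate block gave 4470 calls over all genes and 17 among the 40, without NDC80 and KIF18A.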
